A study of Mus musculus with 495 samples.

Results

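Rfx3 and 6 other genes of cilia and RFX factors, Rfx2, Foxj1, Fam183b, Ttll6, Tmem107 and Ift88, were followed through endocrine differentiation in single cells of the mouse embryonic pancreas. These 7 genes, of 23002 in the table, were listed by name with earlier results of these data known, so their levels are descriptions and none was tested. The table held 495 cells on 7 plates, 1 well per cell, read with Smart-Seq2, a full-length method whose reads have no molecular identifiers. Plates EA01 and EA03 (plate code Neurog3), EA02 and EA05 (endocrine) and EA04 (duct) held cells of day E15.5 with the genotype Neurog3-eGFP, a reporter at the Neurog3 locus. Plates EA06 and EA07 held cells of day E17.5 labelled Neurog3-Cre, Rosa-mTmG, in which Cre switches a membrane reporter from tomato to GFP, although the table names the columns of all 7 plates as the reporter strain. Stage, strain and plates therefore cannot be told apart.

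No animal or litter is named, so each class of cells at each stage was 1 sample. No test was made, and plates are given side by side. All intervals are exact 95% intervals. Those of levels and ratios cover counting error only, with each read taken as a separate count. Those of shares take each cell as a separate draw. None covers the spread between plates or animals. Levels are CPM, the counts of a gene per 1000000 counts summed over a class. Neurog3-positive cells had Neurog3 at 20 CPM or more and no hormone at 1000 CPM (39 cells on EA01, 42 on EA02, 43 on EA03 and 7 on EA05 at E15.5, and 55 at E17.5). Fev-positive cells had Fev, a transcription factor of the stage after Neurog3, at 20 CPM or more without Neurog3 or a hormone (49 and 15 cells). Hormone-positive cells had Ins1, Ins2, Gcg, Sst, Ghrl or Ppy at 1000 CPM or more without Neurog3 (98 and 30 cells). The 66 cells of plate EA04 formed the duct plate class. A further 4 cells at E15.5 and 22 at E17.5 held both Neurog3 and a hormone, and 18 and 7 fell in no class. Few cells lay near a threshold: 4 cells had Neurog3 just under it and 10 just over, within a factor of 2, against 8 and 7 for Fev and 9 and 7 for the highest hormone.

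Cells held 200152 to 1182889 counts and 1237 to 6047 genes. EA01 to EA04 and EA05 to EA07 differed in how much Rn45s, a ribosomal RNA gene, took of all counts, 20.6% to 23.04% against 8.83% to 10.3%. The cells of EA04 carried all 13 acinar markers at 20 CPM or more, 37749 CPM in sum. They also carried 9 of 11 duct markers at that level (3896 CPM in sum, against 3742 CPM in Neurog3-positive cells of E15.5), with Cftr, which was at 0 in every class, and Tspan8 at 0 counts. Of other cell types, 5 of 10 mesenchyme, 3 of 6 endothelial and 2 of 4 mesothelium markers were also at 20 CPM or more on EA04. All mesenchyme markers summed to 2413.6 CPM there, against 84.7 CPM in Neurog3-positive cells of E15.5. The immune and erythroid markers had 0 counts on EA04. Since markers of several cell types were read, the class is called by its plate and not as duct cells. In the 6 other classes the acinar sum was 26.3 to 623 CPM, highest in hormone-positive cells at E15.5. Plate EA05 held 7 of the Neurog3-positive cells at E15.5 but 22 of the 49 Fev-positive and 50 of the 98 hormone-positive cells, which bears on every E15.5 comparison of those classes. Classes of the same plate also differed in well row. On EA01, EA02 and EA03, rows A, B, E and F held 36, 38 and 35 Neurog3-positive cells but 2, 2 and 4 hormone-positive ones. The part of well row in any difference was not tested.

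Duct and islet cells of the pancreas carry a primary cilium, a single non-motile sensory organelle built on a basal body, gated by a transition zone and assembled by intraflagellar transport (IFT). RFX transcription factors bind the X-box, a sequence in promoters of cilia genes, and Foxj1 is the master regulator of motile cilia. In mice that lack Rfx3, islets form with fewer insulin-producing cells and shortened primary cilia. Among the other genes, Rfx2 is a close relative of Rfx3, Fam183b encodes a small protein of ciliated cells, and Ttll6 encodes an enzyme that lengthens glutamate chains on tubulin. Tmem107 encodes a membrane protein of the transition zone and Ift88 a core subunit of the IFT-B particle.

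Promoters are shown because the list joins RFX factors with genes that could carry their binding sequence. RefSeq windows (GRCm38.p6, 250 bases before the start to 50 after it) were found for 6 of the 7 genes. Both strands were searched for GTTGCC, 1 arm of the X-box, which stood in 12.5% of all 32851 windows. It was found in 4 of the 6: Fam183b (2 matches, as in 1.02% of all windows), Rfx2, Rfx3 and Ift88. The sites follow with 8 bases to each side on the strand of the gene, the match in capitals, which for Ift88 is on the opposite strand.
Fam183b, 67 bases before the start: tgggcgctGTTGCCtagagaca
Fam183b, 16 bases before the start: gaacatccGTTGCCtggaaact
Rfx2, chr17:56831119-56831124 before the start: tggtaaccGTTGCCgggcgcaa
Rfx3, 32 bases after the start: tagcaaccGTTGCCttgtgaat
Ift88, 22 bases after the start: tcgcgcctGGCAACggctgggc
The X-box with both arms at the fixed spacing of GTTNCCNNGGNAAC was in none of the 6 windows and in 0.451% of all. Other spacings were not searched. In the Fam183b site 16 bases before the start, GTTGCC is followed, after the base t, by GGAAAC, which fits the other arm. The forkhead sequence TGTTTAC (3.65% of windows) and the E-box CAGATG (17.2%) were also in none. A match is a run of letters, not a shown binding site.

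The upstream 250 bases are printed for Fam183b, which has 2 matches, and for Ttll6, which has none. From Neurog3-positive to Fev-positive cells of E15.5 the first was higher and the second lower. The other genes did not follow such a pairing. Tmem107 has no match and a log2 ratio of 1.72 in that comparison. Rfx3, Rfx2 and Ift88 have a match and ratios of 0.40, -0.27 and 0.25. A link between match and level was not tested. Each printed sequence is written 5′ to 3′ on the strand of its gene, with the X-box arm in capitals.
Fam183b, chr11:58801961-58802210, minus strand: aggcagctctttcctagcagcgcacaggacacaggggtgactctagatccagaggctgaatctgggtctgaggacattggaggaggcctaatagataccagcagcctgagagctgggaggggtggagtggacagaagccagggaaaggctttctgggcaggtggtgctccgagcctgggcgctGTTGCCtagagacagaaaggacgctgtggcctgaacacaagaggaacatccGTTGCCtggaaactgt
Ttll6, chr11:96133536-96133785, plus strand: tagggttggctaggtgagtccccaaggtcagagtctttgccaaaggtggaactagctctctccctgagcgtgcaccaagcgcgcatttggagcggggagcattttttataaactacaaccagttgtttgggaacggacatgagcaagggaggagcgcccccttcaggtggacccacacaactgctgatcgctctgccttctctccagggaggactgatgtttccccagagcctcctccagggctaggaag

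Across the classes at E15.5 the genes followed different courses. Ttll6 was high in Neurog3-positive cells and low on the duct plate and in Fev-positive and hormone-positive cells. Fam183b was unread on the duct plate, low in Neurog3-positive cells and high in Fev-positive and hormone-positive cells, and Tmem107 was highest in hormone-positive cells. Rfx3 was low on the duct plate and at overlapping plate levels in the 3 endocrine classes. Per kilobase of exon, which lets genes be compared with each other, the levels in Neurog3-positive cells at E15.5 ran from Fam183b (187 CPM per kb) and Ttll6 (74.4) through Tmem107 (18.2), Rfx3 (12.01) and Ift88 (7.53) to Rfx2 (4.78), with Foxj1 at 0.00598. In Fev-positive cells Fam183b stood at 1180.3 CPM per kb and Ttll6 at 4.69.

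**Figure D1:**
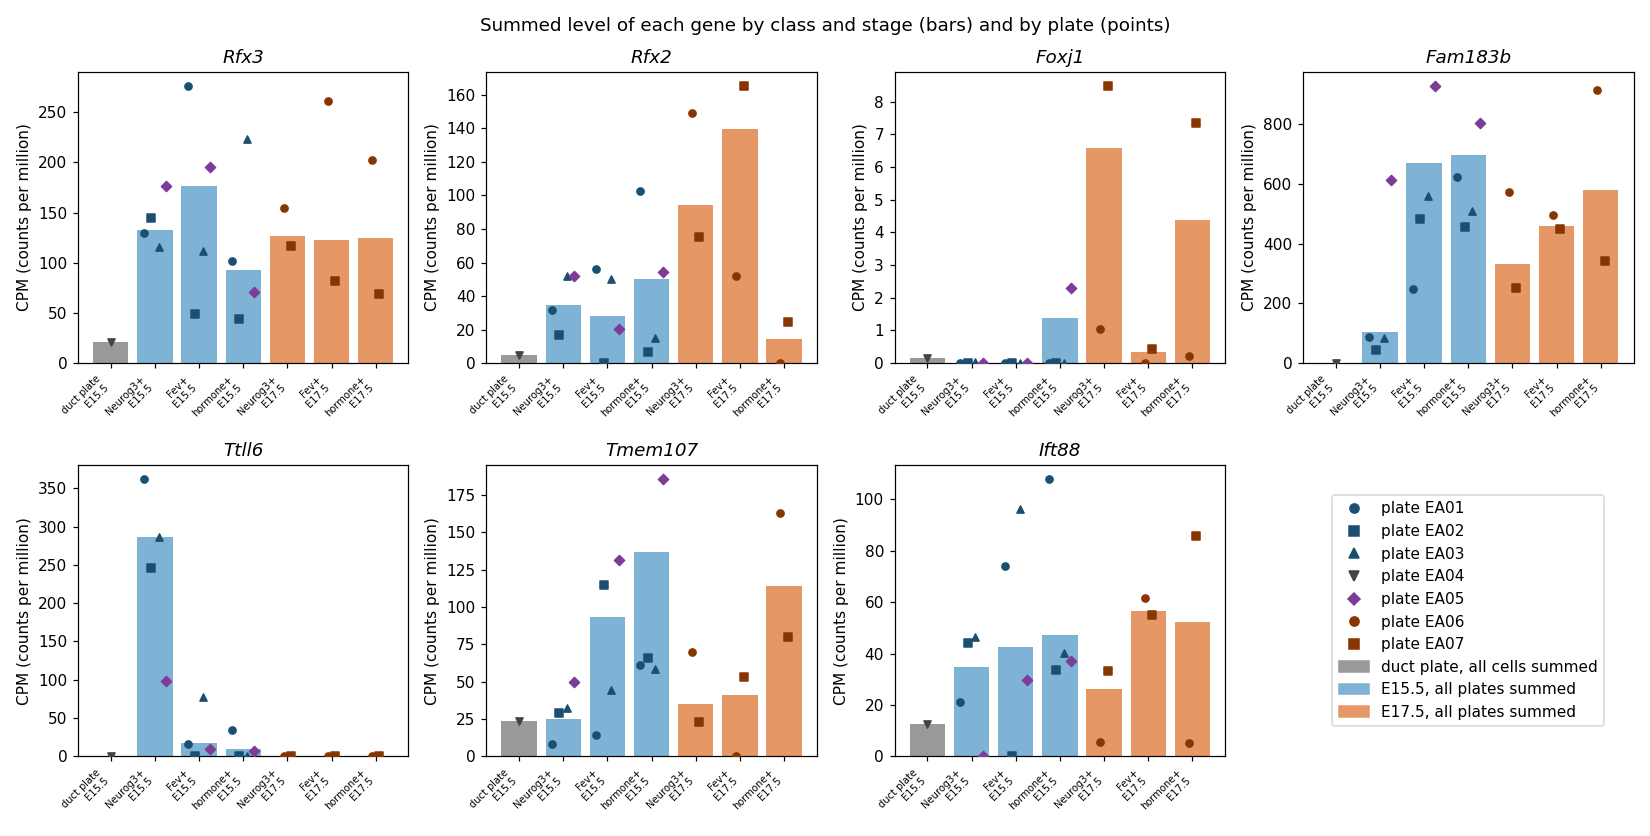
Level of each of the 7 genes in CPM (vertical axis, linear, with its own scale for each gene) by class and stage. Bars are the summed level over all plates and points are single plates. Ttll6 peaks in Neurog3-positive cells of E15.5 at 287 CPM and is at 0 in every E17.5 bar, while Fam183b goes from 0 on the duct plate to 698 CPM in hormone-positive cells of E15.5.

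Rfx3, which lies on chromosome 19 (GRCm38 27761721 to 28011166, minus strand) and overlaps the opposite-strand models Gm20407 and Gm8412, which have no row in the table, was read on the duct plate at 20.6 CPM (18.97 to 22.3), with 12 of 66 cells at 20 CPM or more. In Neurog3-positive cells of E15.5 it stood at 129.4 CPM on EA01, 144.5 on EA02, 115.7 on EA03 and 176.8 on EA05, every plate above the duct plate. Over these plates the level was 132.5 CPM (129.7 to 135.3), a log2 ratio to the duct plate of 2.43 with a pseudocount of 5 CPM added to both levels. Within the class the cells differed widely: 55 (41.98%, 33.4 to 50.9) had 20 CPM or more, the median cell had 4.30 CPM and the highest 1539 CPM.

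In Fev-positive cells of E15.5 Rfx3 ranged over plates from 49.2 CPM on EA02 through 111.5 on EA03 and 196 on EA05 to 276 on EA01. In hormone-positive cells it was 44.2 CPM on EA02, 70.6 on EA05, 102.02 on EA01 and 224 on EA03. These plates overlapped with those of Neurog3-positive cells in both classes, and the pooled levels of 176 and 92.4 CPM gave log2 ratios of 0.40 and -0.50. At E17.5 the levels were 126.1 CPM in Neurog3-positive, 123.02 in Fev-positive and 124.2 in hormone-positive cells, with plates from 68.6 to 261 CPM. The order of the classes is therefore within the spread of the plates, apart from the duct plate below the rest. Within the hormone-positive cells of E15.5, Rfx3 was highest where Ghrl, the ghrelin gene, was the leading hormone (337 CPM, 10 cells). In that group 3 cells held 73.8% of its counts. It was at 120.5 CPM in 6 Ppy cells, 66.1 in 54 insulin cells, 49.8 in 15 Gcg cells and 37.1 in 13 Sst cells. At E17.5 the 4 Ghrl cells stood at 66.3 CPM, and the highest were 3 Ppy cells at 469 and 3 Gcg cells at 333. The order was therefore not the same at the later stage.

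Rfx2 (chromosome 17, 56775897 to 56831013) was carried by few cells. On the duct plate it was at 4.56 CPM, from 2 cells with a read. In Neurog3-positive cells of E15.5 it stood at 31.6 CPM on EA01, 16.7 on EA02, 51.9 on EA03 and 51.9 on EA05. The pooled 34.9 CPM (33.5 to 36.4) gave a log2 ratio of 2.06 to the duct plate (2.69 and 1.16 with a pseudocount of 1 and 20 CPM), but 8 cells (6.11%) reached 20 CPM and 3 cells held 64.6% of its counts. At E17.5 the Neurog3-positive cells were at 149.4 CPM on EA06 and 75.5 on EA07, above every E15.5 plate, with 13 of 55 cells at 20 CPM (23.6%, 13.2 to 37.02). The pooled 94.4 CPM gave a log2 ratio of 1.32 between stages, 1.02 with TMM factors, 1.95 without EA07 and 0.80 against the 7 cells of EA05 alone. Hormone-positive cells of E17.5 had 0.345 CPM on EA06 and 24.8 on EA07, where 2 of 30 cells reached 20 CPM, below Neurog3-positive cells of the same plates (log2 ratio -2.34, with -1.43 without EA06 and -4.85 without EA07). Against hormone-positive cells of E15.5, which ran from 6.91 CPM on EA02 to 102.8 on EA01, the ratio was -1.49, with -0.89 without EA06 and -3.37 without EA07. In Fev-positive cells Rfx2 ran from 0 counts on EA02 to 56.1 CPM on EA01 at E15.5, and was 52.1 on EA06 and 165 on EA07 at E17.5, so that the stage ratio of 2.12 was 0.78 without EA07.

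Foxj1 (chromosome 11, 116330704 to 116335399) was at or near 0 in nearly every cell. Neurog3-positive cells of E15.5 held 1 count of it in 63748549 and Fev-positive cells of E15.5 none. At 20 CPM or more it was found in 1 cell of EA05, a hormone-positive one with 73 counts, and in 6 cells at E17.5 (4.65%, 1.73 to 9.85). The highest cell, a Neurog3-positive one at E17.5, had 121.8 CPM. Of the 10 genes listed as typical of multiciliated cells, which carry many motile cilia, 7 were at 0 counts in Fev-positive cells of E15.5 (Foxj1, Gm6320, Ccno, Ccdc153, Tmem212, Tekt1 and Sntn). The other 3 were Fam183b, at 669 CPM, with Dynlrb2 and Rsph1. In Neurog3-positive cells 4 of the 10 were at 0 counts at E15.5, where Tekt1 stood at 28.3 CPM, and 6 at E17.5. Fev-positive cells of E17.5 had 5 at 0, and hormone-positive cells 6 at E15.5 and 4 at E17.5.

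Fam183b (chromosome 11, 58792797 to 58801960, minus strand) had 0 counts in all 66 cells of the duct plate, which allows a share of cells with a read of up to 4.55% counted as 3 cells, or 5.44% as the exact upper bound. In Neurog3-positive cells of E15.5 it was at 86.1 CPM on EA01, 43.2 on EA02, 84.95 on EA03 and 615 on EA05. The first 3 plates were close to each other and the 7 cells of EA05 stood apart. The pooled level was 105.9 CPM (103.4 to 108.4), at least 1029-fold higher than on the duct plate when that is set to a floor of 3 counts over the class. In all, 45 cells had 20 CPM or more (34.4%, 26.3 to 43.1), and the median cell had 0.

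In Fev-positive cells of E15.5 Fam183b stood at 248 CPM on EA01, 484 on EA02, 559 on EA03 and 929.8 on EA05, and in hormone-positive cells at 623, 455, 511 and 804 CPM on the same plates. On each of the 4 plates both classes were above the Neurog3-positive cells of that plate. The pooled log2 ratios were 2.60 for Fev-positive and 2.66 for hormone-positive cells, but within EA05 they were 0.59 and 0.38. Fam183b was in nearly every cell of these classes: 47 of 49 Fev-positive (95.9%, 86.02 to 99.5) and 98 of 98 hormone-positive cells of E15.5 (100%, 96.3 to 100) had 20 CPM or more, the lowest of the latter at 38.3 CPM. On the duct plate, at a median of 438470 counts per cell, the share was 0.

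At E17.5 Neurog3-positive cells had Fam183b at 572 CPM on EA06 and 252 on EA07, both above EA01 to EA03 and below EA05. The ratio between stages was 1.61 on the log2 scale over all plates, 2.38 without EA07, and turned to -0.87 when the E15.5 side was EA05 alone, the E15.5 plate whose titles carry the same ending and whose Rn45s share was as low as on EA06 and EA07. Whether that marks a shared library preparation is not stated in the labels. Fev-positive cells were at 498 and 450.3 CPM and hormone-positive cells at 915 and 344 CPM on EA06 and EA07, within a factor of 2 of the Neurog3-positive cells of E17.5 in the pooled values (log2 ratios 0.46 and 0.79). Among cells grouped by leading hormone, Ghrl cells had the highest level of Fam183b at both stages, 1042 CPM (10 cells) and 1294 CPM (4 cells). At E15.5, 3 of these 10 cells held 57.7% of its counts in the group. Sst cells had 813 and 503 CPM, Gcg cells 781 and 422, Ppy cells 662 and 261, and insulin cells 584 and 527 CPM.

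Ttll6 (chromosome 11, 96133786 to 96165451, plus strand) had 6 counts on the duct plate, all in 1 cell (0.206 CPM). In Neurog3-positive cells of E15.5 it stood at 362 CPM on EA01, 246 on EA02, 287 on EA03 and 98.98 on EA05, all far above the duct plate. The pooled level of 287 CPM (283 to 291) gave a log2 ratio of 5.81 to the duct plate, which was 7.90 with a pseudocount of 1 CPM and 3.93 with 20 CPM, since the duct plate level was near 0. It was in 81 cells at 20 CPM or more (61.8%, 52.9 to 70.2), the median cell had 113.7 CPM and the highest 2703 CPM.

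In Fev-positive cells of E15.5 Ttll6 was at 15.9 CPM on EA01, 0 on EA02, 77.6 on EA03 and 9.11 on EA05, and in hormone-positive cells at 34.4, 0, 0 and 7.26 CPM. Each plate was below its own Neurog3-positive cells, also EA05, and the pooled log2 ratios were -3.66 (-4.39 without EA03) and -4.35. What remained came from 3 of 49 Fev-positive and 4 of 98 hormone-positive cells. At E17.5 Ttll6 had 0 counts in all cells, 57 of EA06 and 72 of EA07, which allows a share of cells with a read of up to 2.33% counted as 3 cells, or 2.82% as the exact upper bound, although 55 of them were Neurog3-positive. Against the floor of 3 counts, the Neurog3-positive cells of E17.5 were at least 3982-fold lower than those of E15.5. The median depth of Neurog3-positive cells was 526824 counts on EA06 and 873763 on EA07, against 466242 to 554819 on the E15.5 plates.

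**Figure D2:**
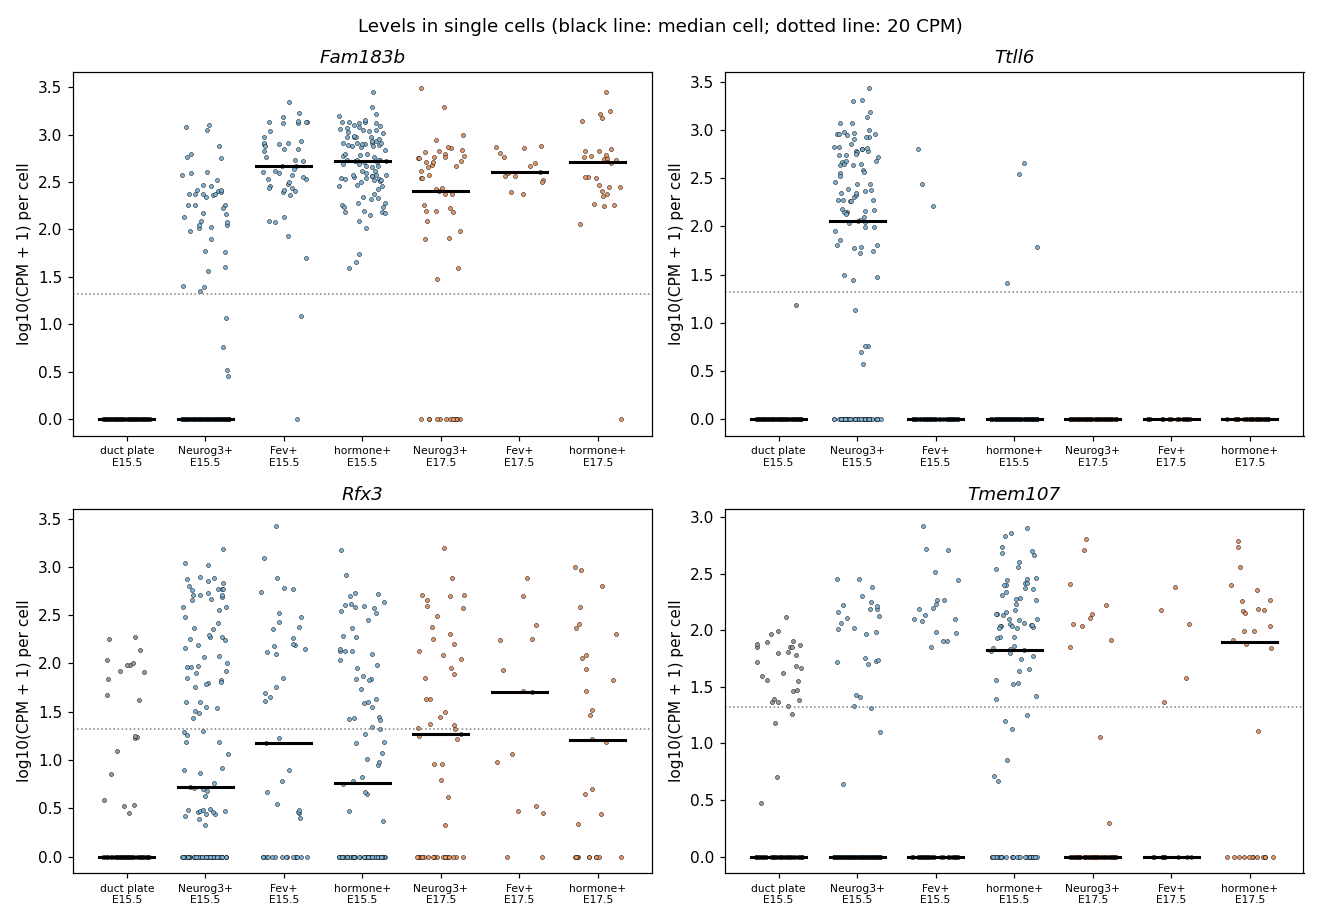
Levels of Fam183b, Ttll6, Rfx3 and Tmem107 in single cells, as log10(CPM + 1), by class and stage. Each point is a cell, the black line is the median cell and the dotted line marks 20 CPM. All 98 hormone-positive cells of E15.5 lie above the line for Fam183b, whereas 4 of them do for Ttll6.

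Within the Neurog3-positive cells of E15.5 the levels of Ttll6 and Fam183b went opposite ways. Cells with Fev under 20 CPM had Ttll6 at 332 CPM and Fam183b at 65.9 CPM, and the 21 cells with Fev at 20 CPM or more had Ttll6 at 61.3 CPM and Fam183b at 305 CPM. At E17.5 the same split gave Fam183b at 149.7 CPM in 29 cells and 523 CPM in 26. By the level of Neurog3, Fam183b was at 74.6 CPM in the 96 cells of E15.5 with 2000 CPM or more and at 151.8 CPM in the 31 cells from 200 to 2000 CPM, where Ttll6 was at 326 and 194 CPM. At E17.5 Fam183b was at 130.4, 383 and 664 CPM in cells with Neurog3 at 2000 CPM or more, from 200 to 2000 CPM and from 20 to 200 CPM. Spearman's rho between Neurog3 and Fam183b over single cells was -0.37 in the Neurog3-positive cells of E15.5 and -0.53 in those of E17.5, a description of cells that share plates and libraries. Ttll6 and Fam183b were not exclusive: 19 cells had both at 20 CPM or more, 62 had Ttll6 alone, 26 Fam183b alone and 24 neither.

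**Figure D3:**
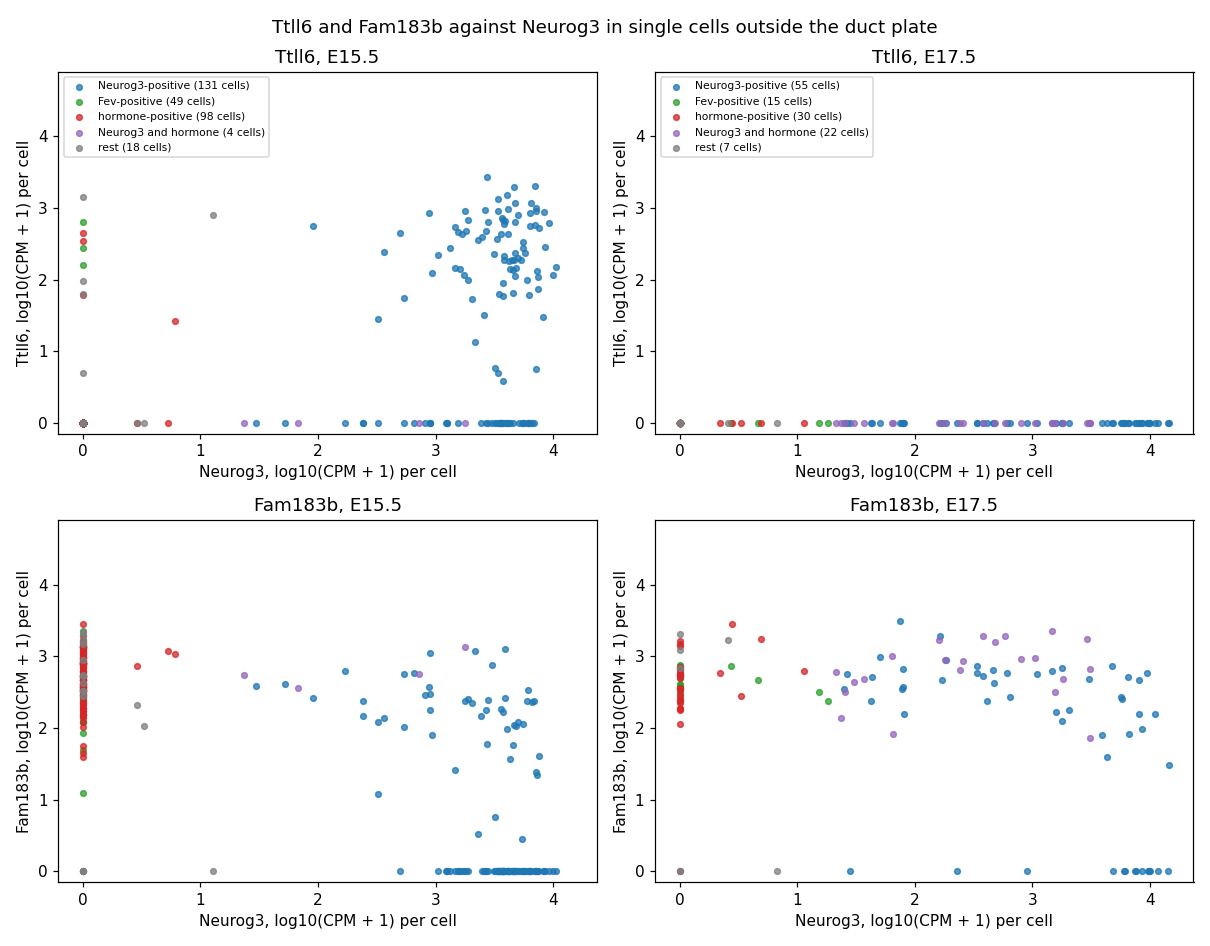
Ttll6 (upper row) and Fam183b (lower row) against Neurog3, all as log10(CPM + 1), in single cells outside the duct plate at E15.5 (left) and E17.5 (right), coloured by class. No cell of E17.5 lies above 0 for Ttll6, and Fam183b is lower in cells with more Neurog3 at both stages (Spearman's rho -0.37 and -0.53 in Neurog3-positive cells).

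Tmem107 (chromosome 11, 69070806 to 69073293, plus strand) was read on the duct plate at 23.5 CPM (21.8 to 25.4), in 27 of 66 cells at 20 CPM or more. Neurog3-positive cells of E15.5 had 8.57 CPM on EA01, 29.2 on EA02, 32.4 on EA03 and 49.9 on EA05, on both sides of the duct plate. Their pooled 24.9 CPM gave a log2 ratio of 0.07, which is -0.01 with TMM factors and -0.11 with DESeq2 size factors. Hormone-positive cells of E15.5 had 61.5 CPM on EA01, 65.6 on EA02, 58.6 on EA03 and 186 on EA05, each above the highest Neurog3-positive plate. The log2 ratio between these classes was 2.24 over all plates and 1.24 without EA05, with 61 cells (62.2%) against 25 (19.1%) at 20 CPM or more. Acinar markers summed to 623 CPM in these hormone-positive cells and to 34.1 CPM in the Neurog3-positive ones, and their part in the difference was not tested. Fev-positive cells of E15.5 were at 14.3, 114.5, 44.7 and 131.6 CPM on the 4 plates, above hormone-positive cells on EA02 and below them on the others (log2 ratio 1.72 over all and 1.11 without EA05). At E17.5 hormone-positive cells had 163 CPM on EA06 and 79.8 on EA07, against 70.2 and 23.4 CPM in Neurog3-positive cells (pooled log2 ratio 1.57, and 0.95 where cells with both Neurog3 and a hormone counted in both classes). Fev-positive cells of E17.5 had 0 counts in the 5 cells of EA06 and 52.98 CPM on EA07. Their ratio to those of E15.5 was -1.11, with -0.41 without EA05, -0.77 without EA06 and -4.30 without EA07, so 1 plate moved it on either side.

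Ift88 (chromosome 14, 57424062 to 57517936, plus strand) overlaps antisense gene models that have no row in the table, and without strand their reads cannot be told apart, as for Rfx3. It was at 12.4 CPM on the duct plate (11.2 to 13.8), in 7 of 66 cells at 20 CPM or more. Neurog3-positive cells of E15.5 had 21.3 CPM on EA01, 44.2 on EA02, 46.3 on EA03 and 0 counts in the 7 cells of EA05. The pooled 34.8 CPM gave a log2 ratio of 1.19 to the duct plate and 0.98 without EA03, and 14 cells reached 20 CPM. The share of such cells, 10.7% against 10.6% on the duct plate, did not follow the level. Fev-positive and hormone-positive cells of E15.5 were at 42.5 and 47.3 CPM, with plates from 0 to 96.1 CPM and from 33.4 to 107.9 CPM, which overlap with the Neurog3-positive plates. In Neurog3-positive cells of E17.5 it was at 5.45 CPM on EA06 and 33.4 on EA07. The log2 ratio between stages was -0.35, with -1.93 without EA07 and 2.64 against EA05 alone, where it had 0 counts, so its direction rests on the plates used. Among hormone-positive cells, Ift88 had 0 counts in the 10 Ghrl cells of E15.5 and the 4 of E17.5, against 77.8 and 56.3 CPM in insulin cells. The 6 Ppy cells of E15.5 also had 0 counts, and Gcg and Sst cells of E15.5 were at 23.4 and 13.9 CPM. At E17.5 Ppy, Gcg and Sst cells were at 23.2, 49.6 and 80.1 CPM. Of all hormone-positive cells of E15.5, 23.5% reached 20 CPM, and a lower share in the Ghrl cells was not detectable with this number of cells.

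Of the 7 genes, 5 were over 2-fold higher in Neurog3-positive cells of E15.5 than on the duct plate (Rfx3, Rfx2, Fam183b, Ttll6 and Ift88) and 0 lower, where 20.04% of the 7859 genes measured at 20 CPM or more in either class were higher and 19.95% lower. From Neurog3-positive to Fev-positive cells at E15.5, 2 were higher (19.90% of all) and 1 lower (13.05%), and to hormone-positive cells 2 were higher (16.67%) and 1 lower (13.10%). At E17.5 the Fev-positive cells had 0 higher (15.49%) and 0 lower (18.47%), and the hormone-positive cells 1 higher (12.52%) and 1 lower (18.36%). Between stages, 2 were higher (23.91%) and 1 lower (5.721%) in Neurog3-positive cells, 1 higher (26.90%) and 1 lower (18.04%) in Fev-positive cells, and 0 higher (18.20%) and 1 lower (9.174%) in hormone-positive cells. The genes were listed with such ratios known, so nothing is read from these counts. TMM factors moved the median ratio of all genes between stages by -0.32 on the log2 scale in Neurog3-positive cells, and by no more than that in the other comparisons.

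Cells held few of the genes at once. The median cell had 1 of the 7 at 20 CPM or more on the duct plate and 2 in the Neurog3-positive, Fev-positive and hormone-positive classes of E15.5, with no more than 5 in any cell. At least 3 were found in 25 Neurog3-positive, 12 of 49 Fev-positive and 47 of 98 hormone-positive cells of E15.5, and in 0 of 66 on the duct plate. The mean per cell was 1.74 in Neurog3-positive, 2.08 in Fev-positive and 2.43 in hormone-positive cells, and 0.712 on the duct plate. Fam183b alone was in 98 of 98 hormone-positive and 0 of 66 duct plate cells. The genes were listed with such levels known, so nothing is read from these numbers.

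The other cilia genes were taken from 10 lists by structure, 215 genes in the table without the members. Against the duct plate, 39 of 84 measured cilia genes (46.4%) were over 2-fold higher in Neurog3-positive cells of E15.5 and 8 lower, with a median log2 ratio of 0.88, where the median of all genes was 0.11. Over all measured genes 20.04% were higher and 19.95% lower. A gene unread on the duct plate passed the 20 CPM minimum only through the Neurog3-positive cells, so its direction was fixed by that minimum and the counts by list are a description. Of the motile axoneme list, 67 genes in the table with Fam183b, 9 others were measured, with 8 higher and 0 lower. Ak8, an axonemal adenylate kinase, stood at 79.3 CPM against 0 counts, Nme5 at 57.4 against 0, the radial spoke gene Rsph9 at 57.04 against 0, and Capsl at 115.2 against 11.3 CPM. Of 13 transition zone genes 10 were higher and 0 lower, among them B9d2 (73.4 against 6.35 CPM), Nphp4 (25.4 against 0) and Tmem67 (66.5 against 8.37). Of 12 measured IFT-B genes 7 were higher and 0 lower, among them Rabl5 (143.2 against 24.7 CPM), Ttc26 (20.6 against 0.515) and Ift57 (57.1 against 10.2). Of 5 regulators of motile cilia 0 were higher and 3 lower, namely Gmnn (12.3 against 177 CPM), Myb and E2f4, genes that are also known from the cell cycle.

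Fev-positive cells of E15.5 had 33 of 99 measured cilia genes higher than Neurog3-positive cells (33.3%) and 12 lower, with a median of 0.64 where all genes had 0.20. Over all genes 19.90% were higher and 13.05% lower, the latter close to the 12.1% of cilia genes. The motile axoneme list had 11 of 19 higher and 2 lower. Here and in the comparisons below, a gene under 20 CPM in 1 class passed the minimum only through the other class. Its direction was fixed by that minimum, so these counts by list are also a description. The dynein heavy chain gene Dnahc9 stood at 38.4 against 0.612 CPM, Ccdc164, a regulator of axonemal dynein, at 52.1 against 3.81, and Ccdc103, a dynein assembly factor, at 33.3 against 1.38 CPM. Tekt1, a tektin of axonemal microtubules, was at 0 counts against 28.3 CPM. Of 9 basal body genes 5 were higher, such as Odf2 (173 against 36.2 CPM) and Cep164 (58.5 against 12.2), and 2 lower, with Cep97 at 1.69 against 50.4 CPM. The IFT-B list had 2 of 14 higher and 1 lower. Hormone-positive cells of E15.5 had 16 of 93 cilia genes higher than Neurog3-positive cells (17.2%) and 8 lower, close to the share over all genes.

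**Figure D4:**
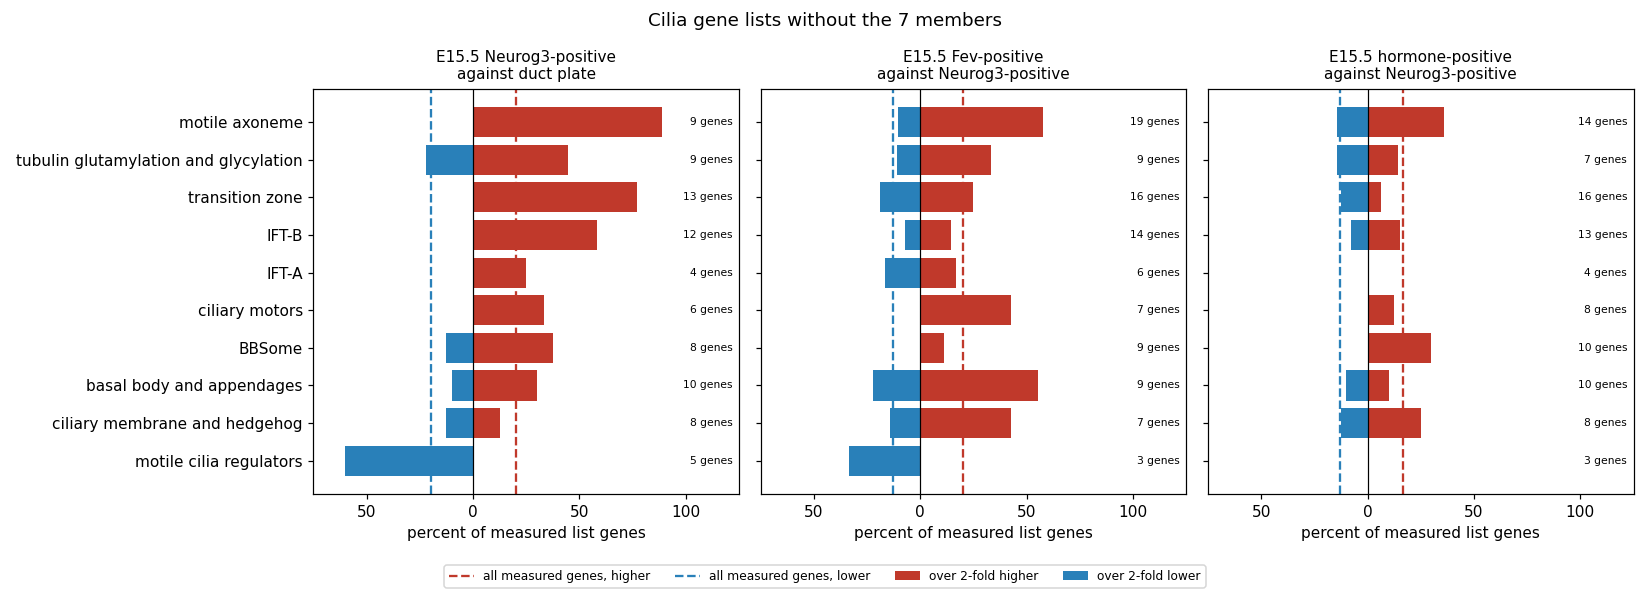
Percent of the measured genes of each cilia list, without the 7 genes, that were over 2-fold higher (red, to the right) or lower (blue, to the left), in 3 comparisons at E15.5; dashed lines give the same for all measured genes and the number of measured genes is at the right. Against the duct plate the motile axoneme bar rests on 9 measured genes of a list of 67, most of which did not reach 20 CPM in either class.

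At E17.5 Fev-positive cells had 25 cilia genes higher than Neurog3-positive cells (22.9% of those measured) and 17 lower (15.6%), where 15.49% and 18.47% of all genes were. Hormone-positive cells had 12 higher (11.9%) and 20 lower (19.8%), close to the 12.52% and 18.36% of all genes. Between stages, Neurog3-positive cells had 25 of 95 cilia genes higher at E17.5 (26.3%) and 5 lower (5.26%), near the 23.91% and 5.721% of all genes. Among them Dnahc9 was at 33.9 against 0.612 CPM and Ccdc164 at 54.98 against 3.81 CPM, while Tekt1 went with Ttll6, at 0 counts against 28.3 CPM. Levels of the list genes, here and in the comparisons above, were pooled over plates and not split by plate. Of the Neurog3-positive cells of E15.5, plate EA05 held 7, so class or stage and plate cannot be told apart in them. Of the RFX family outside the list, Rfx6, which is needed for islet cell formation, stood at 439 CPM in Neurog3-positive cells of E15.5 against 0 counts on the duct plate, and at 131.1 CPM in hormone-positive cells. Rfx1 was at 29.4 CPM at E17.5 against 4.60 at E15.5 in Neurog3-positive cells.

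The genes most like each member were found by Pearson's r of log2(CPM + 5) over 18 sets of cells (a plate and a class with 8 or more cells), among 10787 genes. The sets share plates and libraries, and r is a description. Nearest to Fam183b were Scgn, the calcium sensor secretagogin (r = 0.95), Gch1, the entry enzyme of tetrahydrobiopterin synthesis (0.93), and the dynein light chain gene Dynlt1b (0.91). Scgn went from 0 counts on the duct plate to 293 CPM in Neurog3-positive and 1755 CPM in Fev-positive cells of E15.5. Nearest to Ttll6 were Cd2, known as an adhesion molecule of T cells (0.84), Tekt1 (0.84) and the bHLH factor gene Bhlhe23 (0.83). Cd2 stood at 44.4 CPM in Neurog3-positive cells of E15.5 and 5.52 at E17.5, while 4 of 6 immune markers (Ptprc, Cd52, Tyrobp and Coro1a) had 0 counts in the cells of E15.5, where Fcer1g was at 0.204 and Laptm5 at 5.47 CPM, and all 6 had 0 counts in those of E17.5. Bhlhe23 was at 20.8 CPM in Neurog3-positive cells of E15.5 and at 0 counts in those of E17.5 and in Fev-positive cells. Nearest to Rfx3 was Rere (0.81), to Rfx2 Pnpla2 (0.86), to Tmem107 Dos (0.88) and to Ift88 Prr3 (0.79), and Foxj1 was under 20 CPM in every set. Between members, r was 0.69 for Fam183b with Tmem107, -0.53 for Ttll6 with Tmem107 and -0.39 for Fam183b with Ttll6.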

How the data were processed

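Single cells were read with Smart-Seq2, per the labels' protocols. The deposited table holds unnormalised counts, which are whole throughout; the authors used STAR, HTSeq, FastQC and mm10, per the submitters' processing notes, with versions not given in the sources used here. Reads have no molecular identifiers and strand is not stated. Every cell column matched 1 sample by name, and 0 cells fell under 50000 counts or 1000 genes. Counts were summed per class and given as CPM. Log2 ratios had 5 CPM added to both levels (ratios of low genes are understated) and were taken over genes at 20 CPM or more in either class. Levels have exact Poisson, shares Clopper-Pearson and ratios binomial intervals. Named besides the 7 genes were up to 4 measured genes of each cilia, RFX or endocrine list with the largest absolute ratio, and the 3 genes most like each member. Genes and lists were chosen with earlier results of these data known. Of the list symbols, 31 matched through an older symbol and 6 were not found. Ratios were tested on simulated counts. Alternatives used edgeR 4.0.16 and DESeq2 1.42.0 factors only, not their tests. Other tools were Python 3.11.15, pandas 2.3.3, SciPy 1.17.1 and R 4.3.3. Positions are from GRCm38, GENCODE, and promoters from RefSeq.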

Additional observations from a re-analysis of the deposited data

Results flagged for a closer look

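Plates were compared for each of the 7 genes within each of the 3 endocrine classes of E15.5, where a plate reached 20 CPM. In these sets 3 values lay far from those of the other 3 plates. By chance this occurs in about 1 of 20 sets, and these are plates, not replicates. Fam183b in Neurog3-positive cells was at 615 CPM in the 7 cells of EA05, where the others, with 39 to 43 cells each, were at 43.2 to 86.1 CPM. Ift88 in hormone-positive cells was at 107.9 CPM on EA01, against 33.4 to 40.1 CPM. Tmem107 in hormone-positive cells was at 186 CPM on EA05, against 58.6 to 65.6 CPM.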

How the results depend on the processing

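No paired analysis was possible because no test was made; classes of the same plate were set side by side as values. Of the counts of genes over 2-fold, those against the duct plate stayed within 1.5 times of 5 higher and 0 lower under every alternative run. Within EA05 to EA07, E15.5 lower counts were 2 in place of 1 for Fev-positive and for hormone-positive cells, the Neurog3-positive stage count was 1 higher in place of 2 (Ift88, at 2.64, in place of Rfx2 and Fam183b), and the Fev-positive one 2 lower in place of 1; Fam183b between stages turned to -0.87 from 1.61. At E17.5, Fev-positive cells had 1 higher in place of 0 with the mean of the cells' CPM, a pseudocount of 1 CPM, a Neurog3 or Fev threshold of 100 CPM or cells thinned to 200000 counts, 1 lower with no gene filter, and 1 to 2 higher and 0 to 2 lower with a plate left out. Hormone-positive cells of E17.5 had 2 higher in place of 1 with the mean of cells, 0 with overlapping classes and 1 to 2 with a plate left out. Between stages, a plate left out gave 1 to 2 lower for Neurog3-positive cells, 0 to 1 higher and 1 to 2 lower for Fev-positive cells, and 0 to 1 higher and 1 to 2 lower for hormone-positive cells. The Fev-positive lower count was 2 with the mean of cells, totals without Rn45s, no gene filter or thinning, and 0 with a pseudocount of 20 CPM; the higher count was 0 with a hormone threshold of 5000 CPM or overlapping classes. The hormone-positive lower count was 0 with a Neurog3 threshold of 100 CPM or overlapping classes, and 2 with no gene filter. Causes were not tested. Comparisons within EA01 to EA04 for the E17.5 and stage results, within EA05 to EA07 against the duct plate, and without EA04 gave no value, since a class was empty. Depth sets a floor of 3 counts, 0.0471 CPM in Neurog3-positive cells of E15.5 and 0.252 CPM in Fev-positive cells of E17.5.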
